A study of Mus musculus with 12 samples.

Results

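The RNA that came down with PTBP1 from cultured mouse Sertoli cells was set against the RNA of the same kind of culture before precipitation. The members are 6 of the 12 samples of the series, chosen by their labels: 3 PTBP1 immunoprecipitates (RIP 1 to 3) and 3 inputs (Input 1 to 3). Both groups are labelled as wild-type Sertoli cells in primary culture with testis as their source, and both were sequenced from total RNA with a directional kit. They share every labelled property except the precipitation, and no treatment is named. The age of the animals, the number of cultures and an immunoprecipitation with a control antibody are not given in the labels. The other 6 samples, sorted Sertoli cells of a conditional Ptbp1 knockout and its control, enter here only through the exon length and position listed for each gene in their table. The cultured table lists 21823 genes, of which 16836 had a count in at least 1 of the 6 libraries and 12854 passed the filter on low counts and were tested.

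PTBP1 (polypyrimidine tract binding protein 1) binds stretches of RNA rich in cytosine and uracil. It is best known for repressing exons during splicing, and it also acts on the stability, polyadenylation and translation of RNAs. Sertoli cells are the somatic cells of the seminiferous tubule that surround and nourish germ cells and form the blood-testis barrier. In RNA immunoprecipitation an antibody pulls down the protein with its RNA, and the RNA recovered is compared with that of the whole lysate, the input.

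The RIP libraries held 28796396, 27647718 and 26725003 counts, and the inputs held 12894035, 14946009 and 15315115. Across genes, 2 RIP libraries correlated at 0.996 to 0.997 in log2 CPM (counts scaled to the size of each library, as set by TMM) and 2 inputs at 0.995 to 0.996, while a RIP library and an input correlated at 0.844 to 0.851. The first principal component held 96.7% of the variance and parted RIP from input. The second held 1.13% and set the third library of both groups apart from the other two. The names of the libraries hold 2 numbers of unstated meaning, of which the first is shared by libraries 1 and 2 of a group. Nothing says that the libraries of a group came from separate cultures, so p-values speak only of how far these samples spread, and that spread may be technical. The 24 Sertoli cell markers each had a count and summed to 12800 to 14100 CPM in RIP libraries and 16740 to 18440 CPM in inputs. Clu alone had mean levels of 4447 CPM in RIP libraries and 8477 CPM in inputs. Rhox5 had only 1 count over the RIP libraries and 19 over the inputs, and it was not tested. Markers of peritubular myoid cells and fibroblasts summed to 2530 to 2879 CPM in RIP libraries and 5217 to 5935 CPM in inputs. All 11 had a count, though Lum had only 26 over the RIP libraries and 11 over the inputs. Those of germ cells summed to 53.5 to 53.7 CPM in RIP libraries and 90.2 to 98.8 CPM in inputs, with Prm1, Prm2, Tnp1 and Acrv1 at 0 in all 6 libraries. Leydig cell markers summed to 123 to 133 CPM in RIP libraries and 210 to 218 CPM in inputs, macrophage markers to 8.24 to 9.49 CPM in RIP libraries and 11.8 to 12.9 CPM in inputs, and endothelial markers to 74.1 to 80.1 CPM in RIP libraries and 106 to 119 CPM in inputs. The part of other cell types in the results was not tested, and in these bulk samples fewer cells of a type and less RNA per cell cannot be told apart.

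Most transcripts differed between RIP and input. Of the 12854 tested, 5527 (43%) were higher in RIP and 5758 (44.8%) were lower by edgeR's quasi-likelihood test with Benjamini-Hochberg adjustment, together 87.8% of those tested. Scaled by library size alone, which moves the median of all genes by -0.36 on the log2 scale, the counts were 4207 higher and 7034 lower. A fold over input is therefore relative to the other transcripts of the library. A size rule was set beside the test: 2664 transcripts (20.7%) were enriched, with a log2 fold of 1 or more, and 3471 (27%) were depleted, with a log2 fold of -1 or less.

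The distribution of folds had a long lower tail and a short upper one. The median log2 fold was -0.03, with 5% of transcripts below -3.12 and 5% above 1.70. At a 4-fold difference, 198 transcripts were higher and 1599 lower, and at 8-fold none was higher and 705 were lower. A further step down, 300 transcripts were at least 16-fold lower and 101 at least 32-fold lower. Among the 9468 transcripts whose mean log2 CPM reached 3, the largest fold upward was 5.76. The groups did not overlap for 11303 of the transcripts tested (87.9%).

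Lpp, a LIM-domain protein of focal adhesions, had 2409, 2548 and 2493 CPM in the RIP libraries, against 434, 433 and 455 CPM in the inputs. All 3 RIP libraries stood far above all 3 inputs. Its log2 fold was 2.49 (SE 0.0429, adjusted p = 6.86e-20). Lpp lies at chr16:24393350-24992578 (mm10) and has 15994 bases of annotated exon. Esr1, the estrogen receptor alpha, had 18.1, 17.6 and 17.8 CPM in the RIP libraries, against 3.40, 3.43 and 3.23 CPM in the inputs. The groups lay apart with little spread within either, and the log2 fold was 2.41 (SE 0.102, adjusted p = 2.75e-14). Esr1 lies at chr10:4611989-5005633 with 13661 bases of exon.

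The PTBP family itself was recovered above input. Ptbp3, a paralog of PTBP1 with similar RNA binding, had 1113, 1076 and 1005 CPM in the RIP libraries, against 249, 233 and 249 CPM in the inputs. Its log2 fold was 2.13 (SE 0.0479, adjusted p = 2.89e-18), and it lies at chr4:59471868-59549378. Ptbp1 had 965, 1011 and 934 CPM in the RIP libraries, against 459, 433 and 449 CPM in the inputs, a log2 fold of 1.12 (SE 0.0434, adjusted p = 7.01e-15). Ptbp2, the paralog expressed mainly in neurons and germ cells, had 32.0, 31.2 and 27.8 CPM in the RIP libraries, against 18.9, 16.5 and 16.9 CPM in the inputs. All 3 family members were higher in every RIP library than in any input, with Ptbp2 the smallest at a log2 fold of 0.80 (SE 0.0782, adjusted p = 1.14e-08). PTBP1 is known to promote the skipping of an exon in its own transcript and in that of Ptbp2, which leads to their decay.

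**Figure D1:**
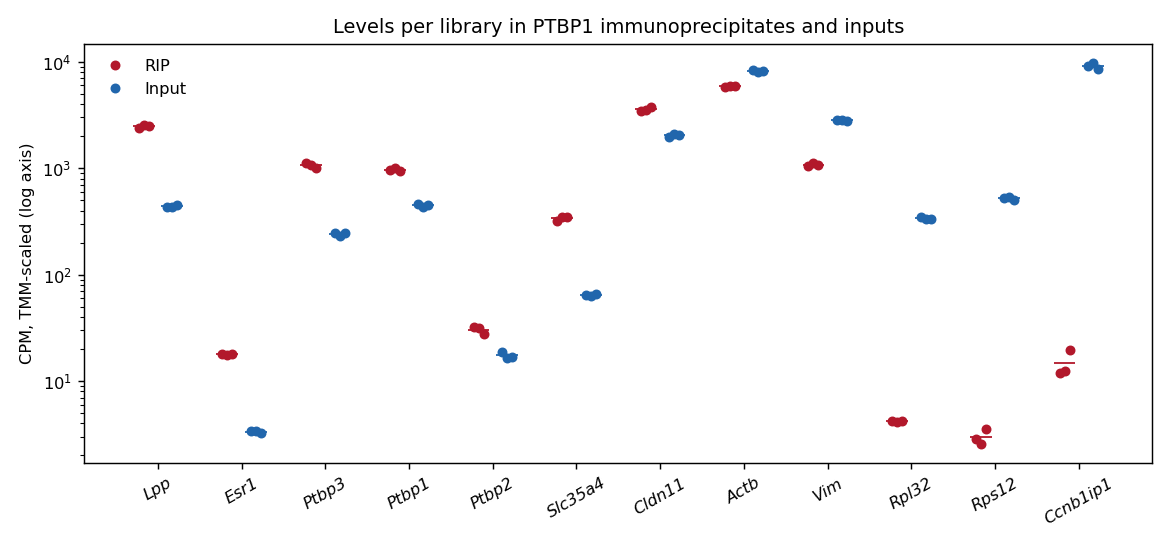
Level of 12 transcripts in each library in TMM-scaled CPM on a log axis, RIP in red at the left and input in blue at the right of each pair, with points for the 3 libraries and a bar for their mean. Lpp, Esr1, Ptbp3, Ptbp1, Ptbp2, Slc35a4 and Cldn11 lie higher in RIP, whereas Actb, Vim, Rpl32 and Rps12, as well as Ccnb1ip1, lie higher in input, and Ccnb1ip1 has the widest gap of the 12.

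At the same level of 3 for the mean log2 CPM, the 12 largest folds upward were Mmgt1, Lpp, Tram2, Uhmk1, Kantr, Esr1, Slc25a16, Slc35a4, Tfcp2l1, Hdx, Hsd17b7 and Tmem245, with log2 folds of 2.34 to 2.53. Mmgt1, a membrane magnesium transporter that is also a subunit of the ER membrane protein complex, led with 429, 428 and 407 CPM in the RIP libraries, against 75.9, 74.8 and 69.0 CPM in the inputs. Tram2, which works with the translocon of the endoplasmic reticulum, had 306, 328 and 298 CPM in the RIP libraries, against 56.6, 58.5 and 55.8 CPM in the inputs. Uhmk1, a kinase that phosphorylates splicing factors, had 923, 940 and 926 CPM in the RIP libraries, against 177.5, 174 and 164 CPM in the inputs. No library of either group came near the other group for any of them. Hsd17b7, an enzyme of sterol and estrogen synthesis, had a log2 fold of 2.35 and Slc35a4, a member of the nucleotide-sugar transporter family, one of 2.39. Kantr is a long noncoding RNA gene of the X chromosome with 1417 bases of exon. It had 45.3, 46.1 and 43.9 CPM in the RIP libraries, against 8.51, 8.58 and 8.42 CPM in the inputs.

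At the other end, ribosomal protein transcripts were nearly missing from the immunoprecipitate. The 12 largest folds downward included Ccnb1ip1, Rps12, Rpl26, Atp5e, Rpl35, Rps26, Tmsb4x, Rpl34, Rpl32, Rpl17 and Rps28, with log2 folds of -6.24 to -9.29. Ccnb1ip1, a ubiquitin ligase known for crossover formation in meiosis, had 11.9, 12.5 and 19.7 CPM in the RIP libraries, against 9187, 9746 and 8484 CPM in the inputs. That is 624-fold lower in RIP, a log2 fold of -9.29 (SE 0.219, adjusted p = 2.03e-07), and the single gene took 1.04% of input counts. It lies at chr14:50789249-50795728. Rps12, a protein of the small ribosomal subunit, had 2.88, 2.57 and 3.58 CPM in the RIP libraries, against 528, 540 and 504 CPM in the inputs. Tmsb4x, the actin-monomer binding thymosin beta 4, had 13.3, 12.6 and 18.1 CPM in the RIP libraries, against 1178, 1111 and 1277 CPM in the inputs. Atp5e, a subunit of mitochondrial ATP synthase, had 0.946, 1.28 and 1.43 CPM in the RIP libraries, against 104, 116 and 98.3 CPM in the inputs. For each of them the groups lay more than an order of magnitude apart.

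Of 85 cytosolic ribosomal protein genes, 83 were tested and 82 were depleted, with a median log2 fold of -5.14. The exception was Rps10, at 1.34, 1.24 and 0.633 CPM in the RIP libraries against 1.16, 1.60 and 1.67 CPM in the inputs (log2 fold -0.46, adjusted p = 0.119), and its groups overlapped. Ribosomal proteins together took 0.0868%, 0.0878% and 0.0933% of RIP counts, against 2.82%, 2.76% and 2.71% of input counts. Histone genes took 0.0196% ± 0.000503 of RIP counts and 0.329% ± 0.0289 of input counts (SD, n = 3 each). The mitochondrially encoded genes took 0.264%, 0.239% and 0.174% of RIP counts, against 0.239%, 0.192% and 0.195% of input counts, and here the groups overlapped (exact permutation test, two-sided, p = 0.6). For ribosomal proteins and histones the groups were fully apart, and the exact permutation test gave p = 0.1, the smallest that 3 against 3 libraries allow. Several ribosomal protein and histone genes have near-identical copies or pseudogenes with which they could share reads, which makes their single values uncertain.

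**Figure D2:**
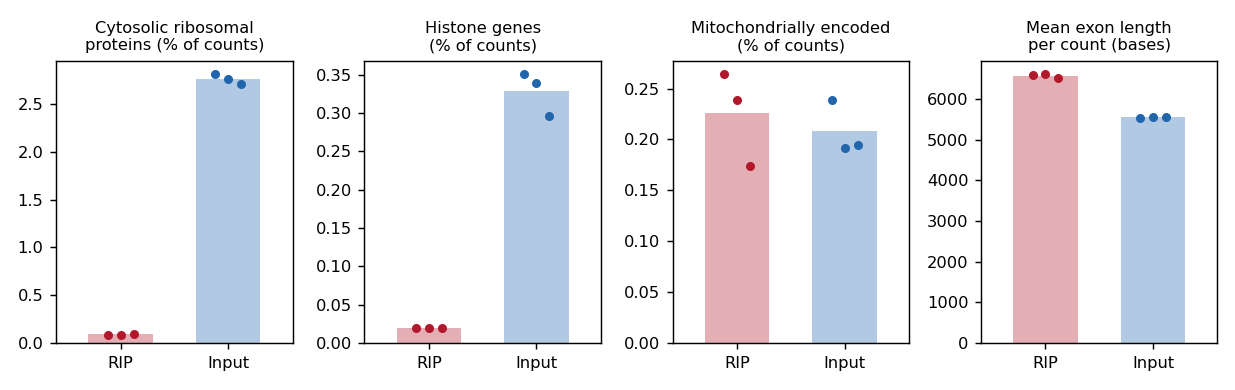
Share of counts in percent for cytosolic ribosomal proteins, histones and mitochondrially encoded genes, and count-weighted mean exon length in bases, per library; bars are the means of 3 libraries, points the libraries, RIP left and input right, all axes from 0. Ribosomal protein and histone shares are far lower in RIP, the mitochondrial shares overlap, and the mean exon length is 6577 bases in RIP and 5554 bases in input.

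Transcripts of ribosomal proteins are known for a pyrimidine run at their very start, the 5′ terminal oligopyrimidine motif, and PTBP1 binds pyrimidine-rich RNA, so the letters at the annotated starts were read. A run was counted where the RefSeq start (GRCm38.p6) was a C followed by at least 4 bases that are each C or T, read on the gene's own strand. Such a run stands at 673 of 27025 RefSeq starts (2.49%) and at 236 of the 10128 tested genes that matched a start (2.33%). The 6 starts shown hold a run, from enriched genes first and depleted genes after them, so that like letters can be set beside opposite recovery. Each has 10 bases before the start and 20 from it, with the run in capitals.
Mfap3: tcgaggagtaCTTCCgggtcaagcatcctc
Ncs1: ccccgcgcaaCTCCTCgccgtggccgcttg
Rnf26: acgttcgcatCCCTTCCaaattcactccga
Rpl35: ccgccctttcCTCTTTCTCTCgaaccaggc
Rps21: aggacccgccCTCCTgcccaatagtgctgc
Rpl38: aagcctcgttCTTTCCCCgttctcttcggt

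The first of these, Mfap3, which is named for its link to microfibrils, was read at chr11:57518655-57518684 on the plus strand. It had 258, 276 and 280 CPM in the RIP libraries, against 54.3, 59.0 and 62.2 CPM in the inputs, a log2 fold of 2.21. Ncs1, a calcium sensor, was read at chr2:31245913-31245942 on the plus strand and had a log2 fold of 2.16. Rnf26, a RING-finger protein of the endoplasmic reticulum, was read at chr9:44113032-44113061 on the minus strand and had one of 2.13. Rpl35, of the large ribosomal subunit, was read at chr2:39005112-39005141 on the minus strand. It had 1.89, 1.33 and 1.60 CPM in the RIP libraries, against 138, 145.5 and 132 CPM in the inputs, a log2 fold of -6.42. Rps21 (chr2:180257369-180257398, plus strand) had a log2 fold of -6.16 and Rpl38 (chr11:114668570-114668599, plus strand) one of -5.92.

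A pyrimidine run at the annotated start thus stood before transcripts of either direction. Genes with the run had a median log2 fold of -0.02, with 17.4% enriched and 26.3% depleted, and genes without it a median of -0.04, with 20.5% and 27.1%. Among the 63 ribosomal protein genes with a matched start, 12 held the run. Their median was -5.03, against -5.20 for those without it. Ribosomal protein transcripts are known for the run, yet only 19% held it here, so the annotated starts may miss it in many genes. Genes counted as without it may thus carry it, and these medians cannot tell whether a terminal run goes with recovery. The share of C and T in the first 50 bases had a rho of -0.01 with the log2 fold across the 10128 genes. These windows lie at annotated gene starts and say nothing of pyrimidines elsewhere in the transcripts, whose sequences were not analysed here.

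Exon length went with the direction of the fold. It was listed for 12511 of the tested genes (97.3%), as the length of all annotated exons of a gene joined together, which can exceed that of the transcript a cell makes. In 10 equal bins of exon length the median log2 fold ran from -2.12 in the shortest bin (66 to 1669 bases) to 0.66 in the longest (9122 to 123179 bases). The medians between were -0.85, -0.53, -0.23, -0.01, 0.13, 0.27, 0.35 and 0.53, so each step toward longer genes was a step up. In the shortest bin 5.59% of genes were enriched and 69.6% depleted, and in the longest 36% and 3.44%. Spearman's rho between log2 fold and exon length was 0.43 across 12511 genes, which are not independent replicates. It was 0.41 over the 12360 genes left when cytosolic ribosomal protein, histone and mitochondrially encoded genes were taken out. Taken 1 RIP library and 1 input at a time, it was 0.434, 0.428 and 0.411.

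Each library showed the same shift as a whole. The count-weighted mean exon length was 6594, 6614 and 6524 bases in the RIP libraries, against 5534, 5562 and 5565 bases in the inputs. All 3 RIP libraries lay above all 3 inputs, by 1024 bases on average, with p = 0.1 in the exact permutation test, the smallest possible. The median exon length was 5331 bases for enriched genes and 2612 bases for depleted genes, against 4145 bases for all tested genes. Gene span, the distance from gene start to gene end, was 35157 bases at the median for enriched genes and 13601 for depleted genes, against 25218 for all. Within 5 equal bins of exon length the rho between fold and span fell to between 0.0211 and 0.165, against 0.29 over all genes, while span and exon length themselves had a rho of 0.632. The 289 genes with a single annotated exon had a median log2 fold of -0.69. Without cytosolic ribosomal protein, histone and mitochondrially encoded genes, the remaining 223 had a median of -0.03.

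**Figure D3:**
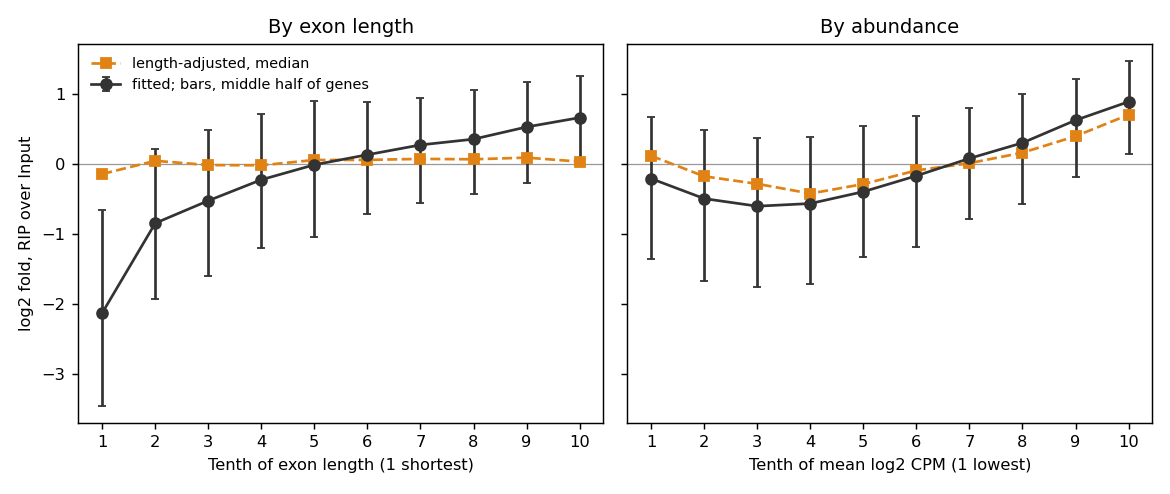
Median log2 fold of RIP over input in 10 equal bins of exon length (left) and of mean log2 CPM (right), with bars for the interquartile range of the genes in a bin and orange for the length-adjusted fold. The fitted median climbs from -2.12 to 0.66 with exon length, and reaches 0.88 in the most abundant bin.

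Abundance moved with the fold in another shape. In 10 equal bins of mean log2 CPM over all 6 libraries the median log2 fold was lowest in the third bin at -0.60 and highest in the last at 0.88. In that last bin 45.9% of genes were enriched and 8.48% depleted. The rho between fold and mean log2 CPM was 0.29 across 12854 genes, but 0.04 when abundance was taken from the inputs alone. Neither abundance is independent of the fold: the mean over 6 libraries contains the RIP values, and the inputs are what the fold is divided by. In a grid of 5 length bins by 5 abundance bins, the lowest median was -1.74, in short genes of the second abundance bin. The highest was 0.95, in the longest and most abundant genes, of which 47.6% were enriched and 1.76% depleted. Within length bins the rho with abundance grew from 0.0436 in the shortest to 0.277 in the longest.

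**Figure D4:**
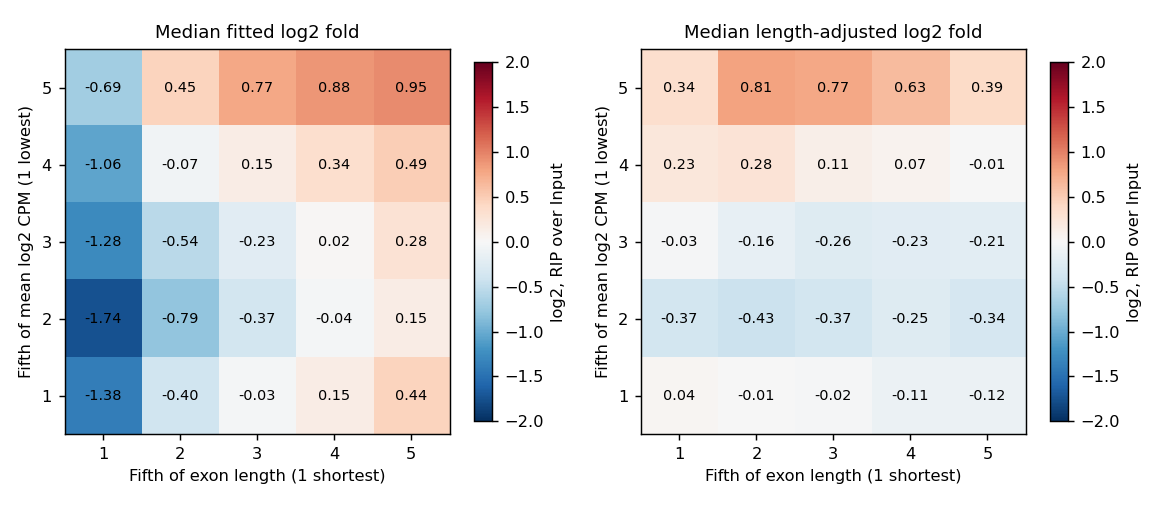
Median log2 fold of RIP over input in a grid of 5 equal bins of exon length by 5 of mean log2 CPM, as fitted and after length adjustment, by a shared colour scale. Fitted medians run from -1.74 in short genes of the second abundance bin to 0.95 in long, abundant genes, and length-adjusted medians from -0.43 to 0.81.

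Length was then taken out with a per-library offset, a smooth curve of each library's log2 CPM deviation on log2 exon length. After it, 2536 transcripts (20.3%) were enriched and 2745 (21.9%) depleted by the same rule. Of the 2605 enriched transcripts with a length, 1841 stayed enriched and none became depleted. Of the 3369 depleted ones, 2351 stayed depleted and 34 became enriched. The median exon length of the 2 sets was then 3501 bases for enriched and 3625 bases for depleted transcripts. An adjusted fold is relative to genes of like annotated length.

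Lpp, Esr1 and Ptbp3 remained enriched after the adjustment, at log2 folds of 1.76, 1.73 and 1.71. The adjusted folds of Mmgt1 and Slc35a4 were 2.50 and 2.61, and that of the short lncRNA Kantr was 3.98. Short genes that stood out were Ifitm2, an interferon-induced membrane protein, at 4.15 after adjustment and 0.79 before, and Emp3, a small membrane protein, at 3.66 and 1.42. Emp3 had 222, 245 and 259 CPM in the RIP libraries, against 89.95, 85.4 and 94.9 CPM in the inputs. Jagn1, a protein of the endoplasmic reticulum, had 120, 130 and 140 CPM in the RIP libraries, against 42.5, 40.4 and 37.2 CPM in the inputs, and its adjusted log2 fold was 3.66. All 3 RIP libraries were above all inputs for both of these genes.

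Depletion was also found in genes with long annotated exons, and enrichment in short ones. Annotated length can exceed that of the transcript made. For Rps19 the listed exons fill 4685 of the 5436 bases of the gene's span, so its transcript need not be long. Rps19, with 4685 bases of exon, had 5.04, 3.68 and 4.09 CPM in the RIP libraries, against 264, 257 and 247 CPM in the inputs, a log2 fold of -5.90 and an adjusted one of -5.997. Mrpl13, a mitochondrial ribosomal protein with 7936 bases of exon, had 3.35, 3.52 and 3.63 CPM in the RIP libraries, against 60.2, 64.0 and 61.4 CPM in the inputs. Its log2 fold was -4.14, and -4.59 after adjustment. Mfsd5, a membrane carrier with 1742 bases of exon, had 156.5, 170 and 173 CPM in the RIP libraries, against 36.4, 33.7 and 35.9 CPM in the inputs. Its log2 fold was 2.24, and 3.35 after adjustment. Dpagt1, the enzyme that starts N-glycan synthesis, had 154.5, 171 and 167 CPM in the RIP libraries, against 34.4, 32.5 and 31.0 CPM in the inputs (log2 fold 2.33). In all 4 genes the libraries of a group lay close together and far from the other group.

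Translation and energy genes were among the most depleted of the groups described. After length adjustment the cytosolic ribosomal proteins had a median log2 fold of -3.55 with 80 of 83 depleted. Their median annotated length was 1659 bases, and where that exceeds the length of the transcript the adjustment may take out too little. Of 36 translation initiation and elongation factors, 24 were depleted and 0 enriched (median -1.53, adjusted -1.34). Eef1a1, which brings aminoacyl-tRNA to the ribosome, had 414, 433 and 453 CPM in the RIP libraries, against 3854, 3862 and 3858 CPM in the inputs (log2 fold -3.15, adjusted -2.59). Tpt1, a growth-related protein whose mRNA is also known for a terminal pyrimidine run, had 10.8, 11.7 and 12.5 CPM in the RIP libraries, against 716, 649 and 744 CPM in the inputs (log2 fold -5.91, adjusted -5.29). Ybx1, an mRNA-packaging protein, was lower as well, at a log2 fold of -4.65. For Eef1a1, Tpt1 and Ybx1 every RIP library lay far below every input. Of 77 mitochondrial ribosomal proteins 62 were depleted and 0 enriched (median -2.91, adjusted -1.41).

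Of 75 nuclear genes of oxidative phosphorylation, 62 were depleted and 1 enriched, with a median log2 fold of -3.39 and an adjusted one of -1.82, under which 54 were depleted and 7 enriched. Cox4i1, a subunit of cytochrome c oxidase, had 4.34, 5.59 and 4.51 CPM in the RIP libraries, against 177, 188 and 181 CPM in the inputs (log2 fold -5.24). Of 31 proteasome subunits 27 were depleted and 0 enriched (median -2.33, adjusted -1.41). Psmb4, a subunit of the proteasome core, had 15.4, 14.6 and 16.7 CPM in the RIP libraries, against 230, 241 and 230 CPM in the inputs (log2 fold -3.91). Neither gene had a RIP library near the inputs. These shares of members depleted stand far from the 27% depleted among all tested transcripts, and the members were chosen with results in view.

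Histones and mitochondrially encoded genes moved most with the length adjustment. Among all tested transcripts 20.7% were enriched and 27% depleted as fitted, and 20.3% and 21.9% of those with a length after adjustment. Of 60 histone genes, whose median exon length was 476 bases, 57 were depleted and 2 enriched at a median of -4.50, but after adjustment 23 were depleted and 9 enriched at a median of -0.78. Hist1h1d, a linker histone, had 4.49, 5.38 and 4.47 CPM in the RIP libraries, against 147, 143 and 131.5 CPM in the inputs (log2 fold -4.87, adjusted -1.80). Of 8 mitochondrially encoded genes 4 were depleted (50%) and 2 enriched (25%) as fitted, and 0 depleted and 4 enriched after adjustment. Their median was -0.83 as fitted and 1.51 after adjustment. mt-Cytb, a subunit of respiratory complex III, had 98.5, 87.2 and 61.4 CPM in the RIP libraries, against 456, 371 and 361 CPM in the inputs (log2 fold -2.26, adjusted -0.17). Its groups did not overlap, and its adjusted fold no longer passed the test.

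Carriers of the membrane were among the most enriched of the symbol families with 15 or more tested genes, a grouping picked after its values were seen and so given without a test. Of 197 genes named Slc, the solute carriers, apart from the mitochondrial Slc25 group, 142 were enriched and 6 depleted, with a median log2 fold of 1.42. After length adjustment 129 were enriched and 5 depleted, with a median of 1.31. Among all tested transcripts 20.7% were enriched, and 72.1% of these carriers were. All 10 Slc16 genes (monocarboxylate carriers), all 6 Slc6 genes (sodium-coupled carriers), 10 of 11 Slc2 genes (hexose carriers) and 9 of 11 Slc7 genes (amino acid carriers) were enriched. The Slc2 genes were of low level, with a mean log2 CPM of 1.99 at the median. Shares were lower for Slc35 (nucleotide-sugar carriers) with 13 of 23, Slc30 (zinc carriers) with 4 of 7, Slc1 (glutamate and neutral amino acid carriers) with 3 of 5, and Slc39 (zinc importers) with 4 of 10. After length adjustment 4 of 6 Slc6 and 2 of 7 Slc12 genes (cation-chloride carriers) were enriched, against 6 and 6 as fitted. The 43 Slc25 genes, the carriers of the mitochondrial inner membrane, had 12 enriched and 8 depleted at a median of 0.21, which was -0.15 with library sizes alone.

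Single carriers showed the same separation of groups. Slc38a2, a neutral amino acid transporter, had 721, 781 and 825 CPM in the RIP libraries, against 254, 255 and 290 CPM in the inputs (log2 fold 1.54). Slc2a1, the glucose transporter GLUT1, was the Slc2 member outside the enriched set, with 76.5, 81.3 and 90.5 CPM in the RIP libraries against 56.6, 61.3 and 64.2 CPM in the inputs (log2 fold 0.44). Its groups lay closer together than those of Slc38a2 but did not overlap. Of the 3 depleted symbols among these whose mean log2 CPM reached 3, Slc7a6os and Slc4a1ap are named for a neighbour or partner of a carrier, and Slc39a7 is a zinc transporter of the endoplasmic reticulum (log2 fold -1.61). The 3 genes just described were chosen after their values were seen, as were Slc38a2 and Slc2a1.

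Several further families of membrane proteins, picked in the same way, had high medians. Among all tested transcripts 20.7% were enriched and 27% depleted. Of 16 Mfsd genes, members of the major facilitator superfamily, 13 were enriched and 0 depleted (median 1.71, adjusted 1.74). Of 27 Gpr genes, orphan and other G-protein-coupled receptors, 17 were enriched and 1 depleted (median 1.32, adjusted 1.13). Of 179 Tmem genes, named only for a transmembrane segment, 61 were enriched and 24 depleted (median 0.60, adjusted 0.93). Of 18 clustered protocadherins beta, adhesion proteins, 14 were enriched and 0 depleted (median 1.22, adjusted 1.38), and 7 and 0 with library sizes alone (median 0.86). Protocadherins of this cluster are alike in sequence and could share reads. They were also scarce, with a mean log2 CPM of 0.13 at the median, against 4.70 for all tested genes. Not every family named for the membrane was high. Of 18 Smim genes, small integral membrane proteins, 10 were depleted and 1 enriched (median -1.26, adjusted 0.17). Of 16 Tspan genes, tetraspanins, 2 were depleted (12.5%) and 3 enriched (18.8%, near the share of all), at a median of 0.20 (adjusted 0.39). Families of other kinds had high fitted medians too. They were 0.83 for the 21 Nup genes (nucleoporins), 0.83 for the 17 Fbxl genes (F-box proteins) and 0.77 for the 19 Kctd genes (BTB-domain proteins). As fitted all 3 were above Tmem, but after length adjustment, at 0.61, 0.81 and 0.67, all 3 were below Tmem. Among the low medians outside the ribosomal, histone and respiratory families were those of Polr, Trmt, Mettl and Eif genes. Of 28 Polr genes, RNA polymerase subunits, 19 were depleted and 3 enriched (median -1.88, adjusted -0.79). Trmt genes, tRNA methyltransferases, had 8 of 15 and 1 (-1.14, adjusted -1.18). Mettl genes, methyltransferase-like proteins, had 11 of 21 and 2 (-1.09, adjusted -0.44), and Eif genes, translation initiation factors, 26 of 52 and 2 (-1.01, adjusted -0.81).

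**Figure D5:**
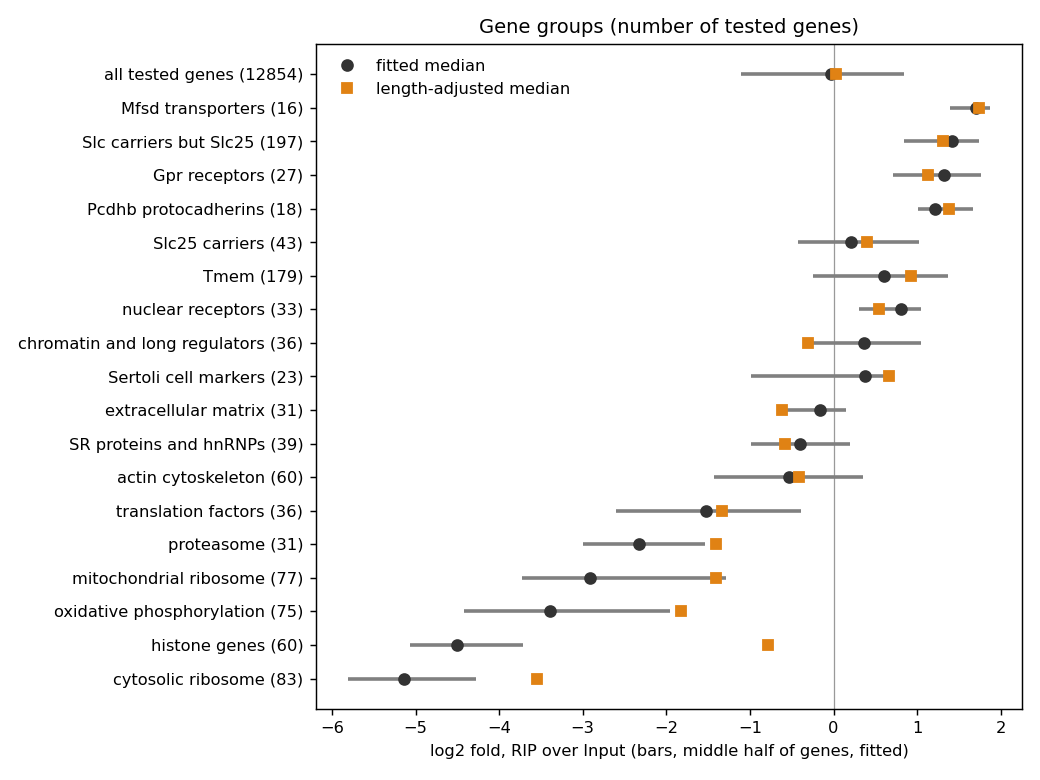
Median log2 fold of RIP over input for all tested genes and 18 groups of them, with bars for the interquartile range of the fitted fold and squares for the length-adjusted median. Cytosolic ribosomal proteins (-5.14, adjusted -3.55) and histones (-4.50, adjusted -0.78) lie lowest, and the Mfsd genes lie highest of those drawn, at 1.71 and an adjusted 1.74.

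RNAs already known as partners of PTBP1 were found on both sides of input. Of 21 genes with reported PTBP1-regulated exons, 4 were enriched (19%) and 5 depleted (23.8%), shares near the 20.7% and 27% of all tested transcripts, with a median log2 fold of -0.41. Tpm1, the tropomyosin whose muscle exon PTBP1 represses, had 118.5, 114 and 113 CPM in the RIP libraries, against 1010, 979 and 981 CPM in the inputs (log2 fold -3.10, adjusted -3.42). Rtn4, a reticulon of the endoplasmic reticulum, was lower too (-1.70). Apaf1, the apoptosome scaffold whose internal ribosome entry PTB is reported to aid, had 263, 263 and 257 CPM in the RIP libraries, against 73.1, 80.2 and 72.0 CPM in the inputs (log2 fold 1.80). It is one of 11 mRNAs reported as bound by PTB for translation or stability, of which 4 were enriched and 2 depleted (median 0.87). The balance was the other way with library sizes alone, at 2 enriched and 4 depleted (median 0.50), and after length adjustment, at 2 and 3 (median 0.49). Igf1r, the IGF-1 receptor, was enriched at 1.59, and Bag1, a co-chaperone, was depleted at -4.45. None of these 5 genes overlapped between RIP and input.

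Other splicing regulators lay on both sides of input. Of 39 tested SR proteins and hnRNPs, out of 40 on the list, 11 were higher and 25 lower, 5 were enriched (12.8%) and 10 depleted (25.6%), with a median of -0.41. Of all tested transcripts, 43% were higher, 44.8% lower, 20.7% enriched and 27% depleted, so the share depleted was near that of the whole. With library sizes alone 2 were enriched and 17 depleted. After length adjustment 10 were depleted and 0 enriched. Hnrnpa1, an abundant splicing repressor, had 78.2, 80.8 and 75.2 CPM in the RIP libraries, against 323, 338 and 302 CPM in the inputs (log2 fold -2.04). Srsf3, an SR protein, was lower as well (log2 fold -1.89). Rbfox2, a regulator of alternative exons, had 678, 678 and 644 CPM in the RIP libraries, against 255, 249.5 and 252 CPM in the inputs (log2 fold 1.40, adjusted 0.99). Rbfox2 lay higher in all 3 RIP libraries, and Hnrnpa1 and Srsf3 lower in all 3.

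Genes of Sertoli cell identity went both ways, as did tested transcripts as a whole. Of 23 tested Sertoli markers, 14 were higher and 9 lower, and the median was 0.38 (0.66 after length adjustment). Of these markers 3 were enriched (13%) and 6 depleted (26.1%), beside 20.7% and 27% of all tested transcripts. With library sizes alone 2 were enriched and 9 depleted at a median of 0.01. Sox9, the transcription factor that sets Sertoli fate, had 727, 682 and 649 CPM in the RIP libraries, against 428, 422 and 449 CPM in the inputs (log2 fold 0.66). Wt1, another factor of Sertoli fate, had 85.6, 78.0 and 80.2 CPM in the RIP libraries, against 166, 166.5 and 167 CPM in the inputs (log2 fold -1.03). Both pairs of groups were apart, in opposite directions. Fshr, the receptor for follicle-stimulating hormone, had 54.1, 56.8 and 48.95 CPM in the RIP libraries, against 23.4, 19.9 and 21.7 CPM in the inputs (log2 fold 1.30, adjusted 2.11). Its RIP libraries all lay above its inputs.

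Vim, the intermediate filament of Sertoli cells, had 1061, 1118 and 1066 CPM in the RIP libraries, against 2850, 2834 and 2802 CPM in the inputs (log2 fold -1.39). Clu, a secreted chaperone, had 4026, 4427 and 4887 CPM in the RIP libraries, against 7883, 8449 and 9100 CPM in the inputs (log2 fold -0.93). Both lay lower in every RIP library, although Clu differed more between the libraries of a group. Defb36, a defensin with 468 bases of exon, was far lower at -5.23, and -1.12 after adjustment. Amh, anti-Mullerian hormone, had 22.2, 22.2 and 26.0 CPM in the RIP libraries, against 15.4, 16.8 and 18.97 CPM in the inputs. Its log2 fold of 0.45 (adjusted p = 9.66e-05) no longer passed the test with library sizes alone (adjusted p = 0.353).

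Of 33 tested nuclear receptors, out of 39 on the list, 26 were higher and 6 lower (median 0.81, adjusted 0.55). Of these receptors 11 were enriched (33.3%) and 4 depleted (12.1%), beside 20.7% and 27% of all tested transcripts. After length adjustment 7 were enriched (21.2%) and 4 depleted (12.1%), beside 20.3% and 21.9% of all with a length. The share enriched was then near that of the whole. Among them Nr1d1, the circadian repressor REV-ERB alpha, had 78.6, 82.5 and 69.8 CPM in the RIP libraries, against 24.4, 23.0 and 21.8 CPM in the inputs (log2 fold 1.74). Its RIP libraries lay well above its inputs, as did those of Esr1. With library sizes alone, the list's enriched and depleted members were 5 and 5, and its median 0.45.

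The series title names the cytoskeleton, mTOR and PKCα. Of 60 actin genes, 8 were enriched (13.3%) and 20 depleted (33.3%), beside 20.7% and 27% of all transcripts (median -0.53, adjusted -0.41). With library sizes alone 2 were enriched and 26 depleted. Actb, the cytoplasmic beta-actin, had 5819, 5879 and 5914 CPM in the RIP libraries, against 8332, 8058 and 8256 CPM in the inputs. Its log2 fold was -0.48 as fitted and -0.01 after length adjustment (adjusted p = 0.808). Arpc1b, a subunit of the actin-branching Arp2/3 complex, had 80.4, 79.5 and 87.7 CPM in the RIP libraries, against 709, 718 and 724 CPM in the inputs (log2 fold -3.12, adjusted -3.28). Both were lower in all 3 RIP libraries, Arpc1b by far more. Myl6, a myosin light chain with 665 bases of exon, had -3.79 as fitted and -0.46 adjusted, and Pfn1, the actin-binding profilin, -3.13 and -0.79. Of 42 microtubule genes 6 were enriched (14.3%) and 9 depleted (21.4%), with a median of 0.05 (-0.31 with library sizes alone, when 1 was enriched and 12 depleted, and -0.17 after length adjustment). Kif1b, a kinesin, had 695, 710 and 675 CPM in the RIP libraries, against 182, 202 and 186 CPM in the inputs (log2 fold 1.87), with no overlap of the groups.

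Adhesion genes had shares enriched near the 20.7% of all tested transcripts, and shares depleted below the 27% of all. Of 34 focal adhesion and LIM genes, which include Lpp, 8 were enriched (23.5%) and 5 depleted (14.7%) at a median of 0.28 (3, 6 and -0.08 with library sizes alone). Fhl2, a LIM-only cofactor, was lower at -1.90. Of 27 tested junction genes of the blood-testis barrier, out of 30, 5 were enriched (18.5%) and 2 depleted (7.41%) at a median of 0.04 (1, 5 and -0.33 with library sizes alone). Cldn11, the claudin of the Sertoli tight junction, had 3463, 3557 and 3760 CPM in the RIP libraries, against 1972, 2079 and 2062 CPM in the inputs (log2 fold 0.82, adjusted 1.80). Gja1, connexin 43, had 149, 158 and 145.5 CPM in the RIP libraries, against 95.4, 96.9 and 101 CPM in the inputs (log2 fold 0.62). Ctnnd1, the p120 catenin that stabilises cadherins, was enriched at 1.97. Cldn11, Gja1 and Ctnnd1 were higher in every RIP library than in any input.

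Of 50 mTOR genes, 13 were enriched (26%) and 11 depleted (22%), near the 20.7% and 27% of all transcripts, with a median of -0.09. With library sizes alone 5 were enriched and 17 depleted, with a median of -0.46. Mtor, the kinase, had 53.0, 55.0 and 54.1 CPM in the RIP libraries, against 62.7, 62.2 and 60.0 CPM in the inputs (log2 fold -0.19, adjusted -0.75). Rptor, the scaffold of complex 1, had 41.7, 42.8 and 42.8 CPM in the RIP libraries, against 69.7, 73.8 and 69.1 CPM in the inputs (log2 fold -0.74, adjusted -1.42). Rictor, the scaffold of complex 2, had 140, 141 and 136 CPM in the RIP libraries, against 52.4, 52.8 and 57.1 CPM in the inputs (log2 fold 1.36, adjusted 0.84). Scaffolds of the 2 complexes thus lay on opposite sides of input.

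Deptor, an inhibitor of both complexes, had 561, 564 and 553 CPM in the RIP libraries, against 158, 156 and 159 CPM in the inputs (log2 fold 1.83). Eif4ebp2, a translation repressor that mTOR phosphorylates, had 803, 837.5 and 797.5 CPM in the RIP libraries, against 206, 205 and 196 CPM in the inputs (log2 fold 2.01, adjusted 3.07). Lamtor2, a subunit of the lysosomal Ragulator complex, was depleted at -4.13. The first 2 lay higher in all 3 RIP libraries and Lamtor2 lower. Prkca, the kinase PKCα, had 288.5, 292 and 266 CPM in the RIP libraries, against 140, 138 and 127 CPM in the inputs (log2 fold 1.06, adjusted 0.56), so it met the 2-fold rule as fitted but not after adjustment. Of 16 tested protein kinase C and related kinases 3 were enriched (18.8%) and 2 depleted (12.5%), beside 20.7% and 27% of all tested transcripts. With library sizes alone 0 were enriched and 4 depleted, at a median of -0.01, against 0.35 as fitted. Prkcd, PKC delta, was depleted at -1.49.

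The most abundant transcripts of the 6 libraries were partly higher and partly lower. Scd2, a fatty acid desaturase, had 9486, 9686 and 9206 CPM in the RIP libraries, against 3581, 3639 and 3586 CPM in the inputs (log2 fold 1.39). Serinc3, a membrane protein named for serine incorporation, had 4571, 4888 and 4898 CPM in the RIP libraries, against 1118, 1107 and 1230 CPM in the inputs (log2 fold 2.05). Both lay higher in all 3 RIP libraries, with little spread within a group. Bgn, the matrix proteoglycan biglycan, was enriched at 1.67 and Lbh, a transcriptional cofactor, at 2.02. Sparc, a matrix glycoprotein, was lower (log2 fold -0.44), as was Gapdh, of glycolysis (log2 fold -0.87). Gstm2, a glutathione transferase, had a log2 fold of 0.49 and an adjusted one of 1.68.

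The medians of a list of chromatin remodellers and long nuclear regulators and of a list of ubiquitin-specific proteases turned sign with the length adjustment. The first list is named in part for length, and its median exon length was 12601 bases, against 4145 bases for all tested genes. Of its 36 genes 11 were enriched (30.6%) and 0 depleted at a median of 0.37 (8, 2 and 0.00 with library sizes alone). Among all tested transcripts 20.7% were enriched and 27% depleted. After length adjustment 0 genes of that list were enriched and 6 depleted, with a median of -0.31. Nsd1, a histone methyltransferase, had 820, 849 and 819 CPM in the RIP libraries, against 295, 322 and 307 CPM in the inputs (log2 fold 1.43, adjusted 0.77). Of 37 ubiquitin-specific proteases on the second list 10 were enriched (27%) and 3 depleted (8.11%) at a median of 0.36 (4, 7 and 0.00 with library sizes alone), which was -0.10 after adjustment. The larger set of 48 tested genes with a Usp symbol did not turn sign, with medians of 0.46 as fitted and 0.05 after adjustment. Birc6, a giant ubiquitin ligase on the first list with 25731 bases of exon, had a log2 fold of 1.86 as fitted and 0.98 after adjustment.

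Of 31 tested extracellular matrix genes 3 were enriched (9.68%) and 3 depleted (9.68%), beside 20.7% and 27% of all tested transcripts, at a median of -0.16. The counts were 2 and 7 with library sizes alone, and 2 and 12 after adjustment (median -0.61). Col1a2, a chain of type I collagen, had 424, 497 and 465 CPM in the RIP libraries, against 1070, 1297 and 1228 CPM in the inputs (log2 fold -1.38). Nid1, a basement membrane protein, was enriched at 1.37. Of 22 glycolysis genes 3 were enriched (13.6%) and 5 depleted (22.7%) at a median of -0.31, and 3 and 9 with library sizes alone. Of 23 chaperones of the endoplasmic reticulum 3 were enriched (13%) and 8 depleted (34.8%), at a median of -0.37. Hspa5, the chaperone BiP, had 243, 266 and 272 CPM in the RIP libraries, against 762.5, 877 and 837 CPM in the inputs (log2 fold -1.66). Col1a2 and Hspa5 lay lower in every RIP library, with no overlap of the groups. The peritubular myoid and fibroblast markers, of which Col1a2 is one, had 5 of 10 tested members depleted and 0 enriched (median -1.04).

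By symbol and gene type, 351 zinc finger genes (Zfp) had 58 enriched (16.5%) and 104 depleted members (29.6%), at a median of -0.15. The 64 predicted genes (Gm) had 10 (15.6%) and 28 (43.8%), at a median of -0.67. The 186 unnamed genes (Rik) had 30 (16.1%) and 72 (38.7%), at a median of -0.48. Among all tested transcripts 20.7% were enriched and 27% depleted. Protein-coding genes by RefSeq type had a median of -0.02, with 2630 of 12642 enriched. Of 21 genes typed as lncRNA, which include Kantr, 4 were enriched and 8 depleted at a median of -0.50. The list of 28 nuclear and other long noncoding RNAs, Malat1 and Neat1 among them, was not analysed here. Every fold above is RIP over input in 1 kind of culture with no control-antibody precipitate, so transcripts bound by PTBP1 and transcripts held in the precipitate in other ways cannot be told apart.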

How the data were processed

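RNA of PTBP1 immunoprecipitates and inputs (3 libraries each) of cultured wild-type Sertoli cells was sequenced from total RNA, extracted with NucleoSpin RNA plus per the labels' protocols. The authors deposited a table of counts, which are whole numbers and not normalized. Genome build mm10 and the tools STAR, HTSeq, Bowtie2 2.3.5.1, DESeq2, cutadapt and bcl2fastq 2.20 stand in the submitters' processing notes, with no role or order. Ribosomal RNA removal and the strand setting of the counting are not given in the sources used here; an overlapping gene on the other strand could share reads if strand was not used. Exon lengths and gene positions come from the deposited table of the sorted samples, matched by symbol, with positions given counted from 1. In that table and in the cultured one, 133 other columns were not used.

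The test was that of edgeR 4.0.16, run in R 4.3.3 (filterByExpr, TMM, robust quasi-likelihood fit, two-sided, Benjamini-Hochberg over all 12854 genes, threshold 0.05). CPM are counts divided by TMM-scaled library size, given per library in the order 1 to 3; a prior count of 2 was added for log2 CPM. TMM factors were 0.882, 0.874 and 0.888 for RIP and 1.14, 1.13 and 1.13 for input. The length adjustment was a lowess of each library's log2 CPM deviation on log2 exon length (span 0.3), used as an offset over 12511 genes. Lists are described by counts and medians, with no set test. Starts were read from the RefSeq promoter table (GRCm38.p6), for which 10128 tested genes matched by symbol. DESeq2 1.42.0 was an alternative. The fits were tested on simulated data.

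The members, the 27 lists (715 distinct genes) and the tests were chosen with earlier results of these data known. Named genes were 19 fixed ones, the 12 largest folds each way, the 10 highest in CPM, the 8 largest length-adjusted folds each way, the 8 largest against the trend with length, and up to 4 per list or 3 per class with the smallest p. Some genes named by the rule are not reported here. Exceptions are the start examples and the carriers marked in the text, which were chosen after their values were seen. The start examples were the 3 largest folds each way among called genes with a run and a mean log2 CPM of 3 or more. Unnamed genes and those of a single chromosome were left out of that choice. Chi-square over its degrees of freedom between libraries of a group was 2.13 or more, so no library was a duplicate. Depth was 12894035 counts or more per library, and that ratio, between 2.13 and 8.4, shows that the spread between libraries exceeds counting error.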

Additional observations from a re-analysis of the deposited data

How the results depend on the processing

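Set against the median of all genes, no list, class or called named gene changed direction under DESeq2, other size factors, thinning of RIP to the input totals or a left-out library. The mitochondrial share of counts, RIP less input (0.0171 percentage points), ran from -0.00211 to 0.043 with 1 library left out, the lowest without RIP 1. Enriched transcripts numbered 1459 with library sizes alone, 4169 by a 1.5-fold rule and 198 by a log2 fold of 2, under which 1599 were depleted. The rho with mean log2 CPM was 0.251 with DESeq2, 0.278 with library sizes alone, 0.276 with RIP thinned, 0.351 over genes reaching a mean log2 CPM of 3, 0.0437 on input abundance, and 0.2889 to 0.2932 over single pairs. The rho with exon length was 0.402 over genes reaching a mean log2 CPM of 3 and 0.4108 to 0.4338 over single pairs.

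Less the median of all genes, the log2 median of ribosomal proteins was -5.23 thinned and -3.58 length-adjusted (main value -5.11). Histones had -4.54 thinned, -0.81 length-adjusted and -4.62 to -4.42 with a library left out (main value -4.47), and mitochondrial ribosomal proteins -1.44 length-adjusted and -2.92 to -2.77 with a library left out (main value -2.88). Length adjustment turned the list of chromatin remodellers and long nuclear regulators to -0.34, that of ubiquitin-specific proteases to -0.13 and the mitochondrially encoded genes to 1.47. It also turned the microtubule list to -0.20 (main value 0.08), and Hist1h2bn to 3.95, Hsd3b1 to 0.45, mt-Nd6 to 2.42 and Sycp3 to 0.53. The germ cell markers turned to -0.50 without the filter on low counts, where more genes near 0 enter. Acta2, Actb, Lyz2, mt-Cytb and Csf1r lost their calls under length adjustment. Exon length is annotated, not measured, and an offset by length removes any binding that itself goes with length.

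Whether library numbers pair the samples stayed unsettled. Same-numbered deviations correlated at 0.116, 0.0403 and 0.175, and those of other pairs at -0.154 to 0.0608. RIP 1 and RIP 3 were nearest to the input of their own number, and RIP 2 to Input 1. With a replicate block 5628 genes were higher and 5834 lower, 2664 enriched and 3470 depleted. Without the third libraries 2735 were enriched and 3531 depleted.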
